A study of Mus musculus with 16 samples.

Results

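The genes described here are immediate early transcription factor genes of the AP-1, Egr and Nr4a families in microglia of the 5xFAD mouse, a transgenic model of amyloid deposition in Alzheimer's disease. They were named by symbol, with earlier results of these data known. Of the 10 symbols named, 7 (Jun, Junb, Jund, Atf3, Egr1, Egr2 and Nr4a1) were found among the 17951 genes with values, a list that had passed the authors' filter on low expression. Fos, Fosb and Egr3 are not analysed here. The 16 RNA-seq libraries were made from brain cells sorted as Cd11b and Cd45 positive after the mice had been injected with Methoxy-X04 (Me-X04), a dye that enters the brain and stains amyloid. There were 7 WT libraries from mice labelled 2 months old, and 5 TG Me-X04- libraries and 4 libraries of TG Me-X04+ from mice labelled 6 months old, the latter groups being 5xFAD microglia without and with the dye. TG libraries of the same number come from the same animal by their labels, and the other libraries carry a label each. WT mice also received the dye. Because the WT and TG mice differ in labelled age as well as in the transgene, age and genotype cannot be told apart in any comparison with WT. The study's methods give ages for its animals that lie closer together than those of the labels, without tying them to a genotype, and the sources used here do not settle which hold. In these bulk samples, fewer cells expressing a gene and less RNA of it per cell cannot be told apart either.

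Immediate early genes are transcribed within minutes of a stimulus, without new protein synthesis, when kinase cascades act on factors such as SRF, its Elk partners and CREB that are already bound at their promoters. Jun, Junb and Jund encode subunits of the dimeric factor AP-1, Atf3 encodes a stress-induced partner of the same family, Egr1 and Egr2 encode zinc finger factors that bind GC-rich sites, and Nr4a1 encodes an orphan nuclear receptor. In the brain these genes are known for their response to neuronal activity, and in microglia for their response to inflammatory stimuli and to the isolation of the cells, which can switch them on ex vivo. The microglia of all 3 groups were released by mechanical dissociation, passed through a density gradient and sorted. The part of this isolation in the values below was not tested.

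Depth on the listed genes was 15623664 to 22119327 reads in WT, 17216633 to 25184600 in TG Me-X04- and 22430251 to 27579017 in TG Me-X04+. The share of these reads on mitochondrial genes was 11.0 to 24.1%, 18.2 to 35.6% and 27.2 to 44.8% in the same order. Apart from the groups, the libraries fell into a set A (WT replicates 1 to 3 and replicates 1 and 2 of both TG groups) and a set B (all others) on the first principal component, computed after the group means were taken out. The methods name another sequencer for samples added later but not which libraries those are. All 8 microglial markers looked for were present, with a summed level of 4529 to 6951 RPKM (reads per kilobase of gene, relative to library size) in WT, 3951 to 7950 in TG Me-X04- and 5047 to 7995 in TG Me-X04+. Of 5 neuronal markers, Slc17a7 and Gad1 are not analysed here and the other 3 summed to 0.419 to 1.87, 0.465 to 0.967 and 0.0643 to 0.447 RPKM, with Rbfox3 at 0 to 34 reads in WT, 5 to 19 in TG Me-X04- and 0 to 6 in TG Me-X04+. The 4 border macrophage markers (Mrc1, Cd163, Lyve1 and Cbr2) summed to 1.00 to 3.63, 1.05 to 5.05 and 0.805 to 17.5 RPKM. Pecam1 and Flt1, the endothelial genes analysed of 5 endothelial and mural markers, moved in opposite directions. Flt1 had 0 to 13 reads in WT, 6 to 59 in TG Me-X04- and 200 to 458 in TG Me-X04+, where it lay apart from both other groups (mean log2 RPKM -5.50, -3.18 and 0.37), as did Egr2 and Atf3. Pecam1 had mean levels of 2.89, 0.53 and -1.94 log2 RPKM, with 0 to 878 reads in TG Me-X04+. The monocyte gene Ccr2 was at a median of 2.88, 1.99 and 0.993 RPKM in the 3 groups, with TG Me-X04+ below all other libraries. The neutrophil genes S100a8 and S100a9 summed to 0 to 11.5 RPKM in WT (median 0.0836), 0 to 19.3 in TG Me-X04- (median 0) and 0 to 7.17 in TG Me-X04+ (median 5.75). The lymphocyte gene Cd79a was at most at 0.825, 0.251 and 0.117 RPKM, 3 astrocyte markers summed to 0.247 to 3.34, 1.89 to 4.51 and 0.954 to 2.52, and 3 oligodendrocyte markers to 0.759 to 6.41, 1.95 to 4.71 and 2.55 to 5.44. The part of these other cells in the changes below was not tested.

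For the 4 of 6 genes examined whose window held a motif match, the 200 bases before their RefSeq start sites on GRCm38.p6 are given 5′ to 3′ in the direction of transcription. Capitals mark matches, on either strand, to the CArG box bound by SRF, to TGACG (the core of the site bound by CREB and ATF factors, read CGTCA on the other strand), to GCGNGGGCG (the Egr site) or to TGANTCA (the AP-1 site).
Egr2, chr10:67537669-67537868, plus strand: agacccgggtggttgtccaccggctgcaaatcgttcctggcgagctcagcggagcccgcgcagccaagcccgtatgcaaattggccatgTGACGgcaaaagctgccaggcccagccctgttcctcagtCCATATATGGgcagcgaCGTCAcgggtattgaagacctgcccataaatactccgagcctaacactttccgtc
Atf3, chr1:191183334-191183533, minus strand: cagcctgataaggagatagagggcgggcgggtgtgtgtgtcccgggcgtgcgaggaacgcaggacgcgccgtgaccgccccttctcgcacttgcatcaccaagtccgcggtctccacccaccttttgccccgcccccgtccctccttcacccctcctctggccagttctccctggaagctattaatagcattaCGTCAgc
Nr4a1, chr15:101266646-101266845, plus strand: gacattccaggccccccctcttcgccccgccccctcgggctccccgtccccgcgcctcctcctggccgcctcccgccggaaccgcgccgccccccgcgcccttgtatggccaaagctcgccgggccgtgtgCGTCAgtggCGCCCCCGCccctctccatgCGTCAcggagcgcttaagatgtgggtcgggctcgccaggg
Junb, chr8:84978749-84978948, minus strand: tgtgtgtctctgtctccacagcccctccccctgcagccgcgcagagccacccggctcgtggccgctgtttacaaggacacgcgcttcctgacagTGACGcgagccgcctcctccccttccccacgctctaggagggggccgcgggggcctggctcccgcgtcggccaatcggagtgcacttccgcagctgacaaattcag
The Egr2 window, the one of its 5 listed windows with start site 67537869, held a CArG box at positions -72 to -63 from the start site, with TGACG on the transcribed direction at -111 to -107 and on the opposite strand at -55 to -51. The Egr2 window with start site 67535499, the nearest to the gene's start in Gencode, held none of these motifs. The window with start site 67537566 held another CArG box, at -72 to -63, and no TGACG. The remaining listed windows overlap the one shown and held the same matches. Atf3 held a TGACG match at -7 to -3, Junb one at -106 to -102, and Nr4a1 matches at -69 to -65 and -40 to -36 around an Egr site at -60 to -52. In windows of the same length, 1.18% of 32851 RefSeq promoters held a CArG box, 15.7% TGACG, 4.28% the Egr site and 5.48% the AP-1 site. These shares are per window, and Egr2 had 5 windows in which a match could be found. None of these motifs was found in the windows of Jun and Jund, and the window of Egr1 was not analysed here. For Jund the RefSeq start site at 70697739 lies upstream of the gene's start in the Gencode release used here for positions. The counted length of Jund, 2878 bases, is longer than its span in that release. The counted gene was thus another model, which may start elsewhere. The start sites of the Egr2, Atf3 and Nr4a1 windows shown lie inside the Gencode genes, so these windows are not the stretches just before those genes.

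All 7 genes are protein coding. On GRCm38 (Gencode), Jun (ENSMUSG00000052684) lies on the minus strand of chromosome 4 from 95049034 to 95052222, Junb (ENSMUSG00000052837) on the minus strand of chromosome 8 from 84974484 to 84978718, and Jund (ENSMUSG00000071076) on the plus strand of the same chromosome from 70698949 to 70700616. Atf3 (ENSMUSG00000026628) spans 191170296 to 191218039 on the minus strand of chromosome 1, Egr2 (ENSMUSG00000037868) spans 67535475 to 67542188 on the plus strand of chromosome 10, and Nr4a1 (ENSMUSG00000023034) spans 101254269 to 101274795 on the plus strand of chromosome 15. Egr1 is ENSMUSG00000038418. Jun overlaps the antisense gene Junos, Jund the antisense gene Gm11175, Junb the gene Prdx2 on the other strand and Atf3 the small RNA gene Gm24748. The sources used here do not say whether the counting used strand, so reads of these partners cannot be told apart from those of the 4 genes. No other gene overlaps Egr1, Egr2 or Nr4a1. The positions and overlaps are those of the Gencode release used here, and the counted model of Jund (2878 bases) is longer than its span there. Its overlaps in the counted annotation may therefore differ.

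Jun had the highest mean level of the 7 genes in each group, and Nr4a1 the lowest, while the order between them differed from group to group. Levels are mean log2 RPKM, which is per length and so can be set side by side between genes. In WT microglia the order was Jun (3.41), Jund (1.98), Junb (1.76), Egr1 (0.40), Atf3 (0.39), Egr2 (-1.82) and Nr4a1 (-2.76), and Jun and Jund were the only neighbours whose libraries did not overlap. In TG Me-X04- it was Jun (3.63), Egr1 (1.98), Jund (1.74), Junb (1.66), Atf3 (1.50), Egr2 (0.71) and Nr4a1 (-0.83), with Egr1, Jund, Junb and Atf3 overlapping in turn and the other neighbours apart. In TG Me-X04+ it was Jun (3.85), Atf3 (3.34), Egr1 (3.29), Egr2 (2.82), Jund (2.50), Junb (0.61) and Nr4a1 (-2.84), and every pair of neighbours overlapped. Egr2 thus stood just above Nr4a1 in WT and above Jund and Junb in TG Me-X04+, in each of whose 4 libraries it exceeded Jund.

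**Figure D1:**
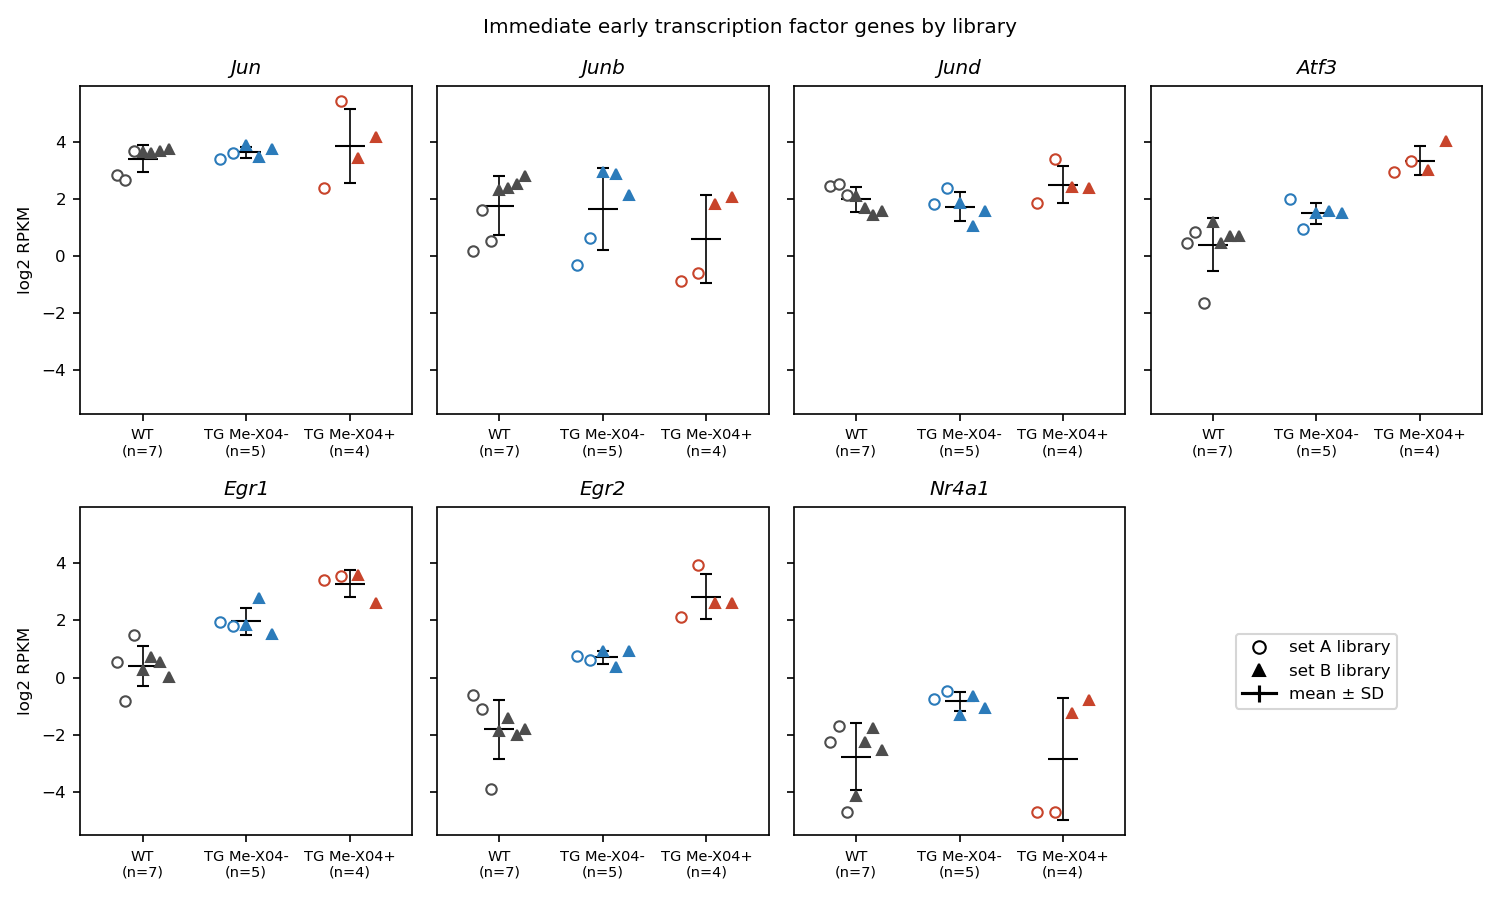
Level of each gene in each library, in log2 RPKM on the vertical axis, by group on the horizontal axis. Open circles are set A libraries, triangles set B libraries, and the bar with whiskers is the mean ± SD of a group (n = 7, 5 and 4). Atf3, Egr1 and Egr2 lie higher in TG Me-X04+ than in WT without overlap, Junb splits by set within each group, and Nr4a1 is lowest in TG Me-X04+ replicates 1 and 2 and in WT replicate 3.

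The following tests used limma over all 17951 genes, on the deposited log2 RPKM with the 3 groups in a single fit. Differential expression (DE) was called where the Benjamini-Hochberg adjusted p was under 0.05 and the log2 fold change (log2FC) was 0.7 or more in size. Of the 7 genes, 1 was DE and higher in TG Me-X04- against WT (Egr2), where 0.189% of all genes were DE and higher and 0.0111% DE and lower. Between the TG groups, 2 were DE and higher (Atf3 and Egr2), where 3.44% of all genes were so and 2.06% were DE and lower. In TG Me-X04+ against WT, 3 were DE and higher (Atf3, Egr1 and Egr2), where 8.25% of all genes were so and 6.02% were DE and lower. None of the 7 was DE and lower in any comparison in this fit, nor by limma voom on the recovered reads. Nr4a1 in TG Me-X04+ against TG Me-X04- had an unadjusted limma p of 0.0309. Junb was DE and lower in TG Me-X04+ against WT when a term for the sets was added, as given below. No overlap between the libraries of TG Me-X04- and WT was seen for 3 of the 7 genes (Egr1, Egr2 and Nr4a1), beside 1.06% of all genes. They did not overlap for Atf3 and Egr2 in TG Me-X04+ against TG Me-X04- (7.93% of all genes) and for Atf3, Egr1 and Egr2 in TG Me-X04+ against WT (10.5%). The comparisons share libraries, and each is given by its own values.

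**Figure D2:**
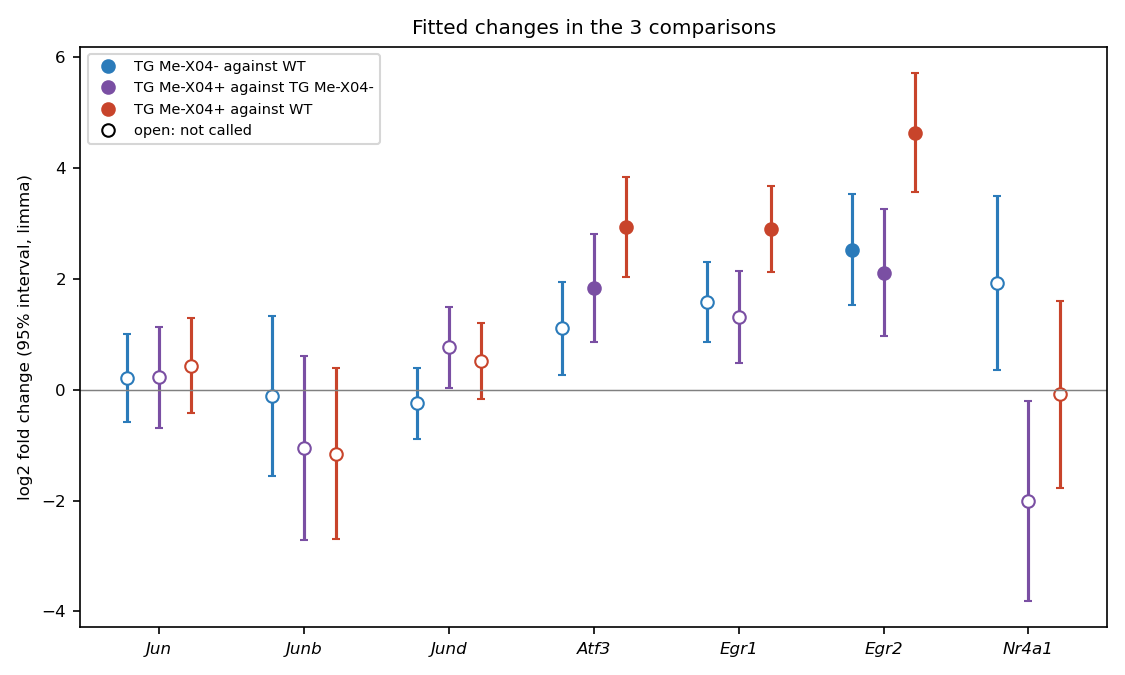
Fitted log2 fold change of each gene (vertical axis) in TG Me-X04- against WT (blue), TG Me-X04+ against TG Me-X04- (purple) and TG Me-X04+ against WT (red), with 95% intervals from limma. Filled points are DE genes and open points are not. Egr2 is filled in all 3 comparisons, Atf3 in both that involve TG Me-X04+, Egr1 in TG Me-X04+ against WT only, and no Jun gene is filled.

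Egr2, which encodes a zinc finger factor known for its part in myelination and in lymphocyte and macrophage programmes, changed most. In WT its log2 RPKM ran from -3.89 in replicate 3 through a median of -1.81 to -0.62, on 2 to 35 reads. The 5 TG Me-X04- libraries held 0.74, 0.61, 0.93, 0.37 and 0.91, on 92 to 175 reads, and the 4 TG Me-X04+ libraries 2.12, 3.95, 2.62 and 2.60, on 194 to 784 reads. Each group thus lay apart from the others, with the TG Me-X04- libraries within a narrow band between WT and TG Me-X04+. Egr2 rose 5.76-fold in TG Me-X04- against WT (95% interval 2.88 to 11.5, log2FC 2.53, SE 0.48, limma adjusted p = 0.0343), and ranked 29th of all genes by p. It rose a further 4.32-fold in TG Me-X04+ against TG Me-X04- (interval 1.95 to 9.57, log2FC 2.11, SE 0.54, limma adjusted p = 0.0305), and stood 24.9-fold higher in TG Me-X04+ than in WT (interval 11.8 to 52.4, log2FC 4.64, limma adjusted p = 1.11e-05). The call against WT in TG Me-X04+ held in 27 of 27 alternatives, whereas the other calls lay near the threshold. In TG Me-X04- against WT the log2FC stayed between 2.18 and 2.73 with each library left out in turn, but the call was kept only without WT replicate 1, 2 or 3 and lost without any of WT replicates 4 to 7 or TG Me-X04- replicates 1 to 5 (limma adjusted p 0.0551 to 0.121). Between the TG groups the call was kept without TG Me-X04+ replicate 1 or 4 and lost without TG Me-X04+ replicate 2 or 3 or any TG Me-X04- library (limma adjusted p 0.0522 to 0.105, log2FC 1.74 to 2.16 across these).

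Egr1, the classic serum and activity response gene, followed the same order at higher levels and with smaller differences. WT libraries ran from -0.80 through a median of 0.53 to 1.48 log2 RPKM, on 41 to 188 reads. TG Me-X04- libraries held 1.95, 1.82, 1.83, 2.77 and 1.51, on 284 to 773 reads, and TG Me-X04+ libraries 3.42, 3.56, 3.58 and 2.61, on 631 to 1226 reads. All TG libraries were above all WT libraries, and TG Me-X04+ replicate 4 fell within the TG Me-X04- range, below the TG Me-X04- library of the same animal. Egr1 rose 7.44-fold in TG Me-X04+ against WT (interval 4.35 to 12.7, log2FC 2.90, SE 0.37, limma adjusted p = 4.42e-05), a call held in 27 of 27 alternatives. In the other comparisons it was not DE, with a log2FC of 1.58 (SE 0.34, limma adjusted p = 0.101) in TG Me-X04- against WT and of 1.32 (SE 0.39, limma adjusted p = 0.0608) in TG Me-X04+ against TG Me-X04-. These misses depended on single libraries, since Egr1 was DE in TG Me-X04- against WT without WT replicate 3 (limma adjusted p = 0.0323) and in TG Me-X04+ against TG Me-X04- without TG Me-X04- replicate 4 (0.0464) or TG Me-X04+ replicate 4 (0.0411). By limma voom on the recovered reads it was DE in TG Me-X04+ against TG Me-X04- (adjusted p = 0.0118). The study's own report names Egr1 among the genes altered between WT and TG Me-X04- microglia. Its methods name a count test, while its deposited comparisons hold moderated t and log odds. Within a library, Egr2 minus Egr1 ran from -5.37 to -0.28 on the log2 RPKM scale in WT (median -2.15), from -2.40 to -0.60 in TG Me-X04- (median -1.21) and from -1.30 to 0.39 in TG Me-X04+ (median -0.49).

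Atf3, an AP-1 family member induced by stress and known to dampen inflammatory genes in macrophages, was high in TG Me-X04+ microglia. Its WT libraries ran from -1.62 in replicate 3 through a median of 0.69 to 1.21 log2 RPKM, on 9 to 112 reads. TG Me-X04- libraries held 1.99, 0.95, 1.49, 1.57 and 1.50, on 81 to 164 reads, and TG Me-X04+ libraries 2.96, 3.33, 3.02 and 4.04, on 220 to 834 reads. TG Me-X04- and WT overlapped through TG Me-X04- replicate 2 and WT replicate 4, while TG Me-X04+ was apart from both. Atf3 rose 3.57-fold in TG Me-X04+ against TG Me-X04- (interval 1.83 to 6.98, log2FC 1.84, SE 0.46, limma adjusted p = 0.0258) and 7.70-fold against WT (interval 4.12 to 14.4, log2FC 2.94, SE 0.43, limma adjusted p = 0.000151). In TG Me-X04- against WT the log2FC was 1.11 (SE 0.40) and Atf3 was not DE (limma adjusted p = 0.682). The call against TG Me-X04- was lost without TG Me-X04- replicate 2 or 5 or TG Me-X04+ replicate 2 or 4 (limma adjusted p 0.0541 to 0.0685), and that against WT held in 27 of 27 alternatives.

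The 3 Jun genes were not DE in any of the comparisons in the fit without a term for the sets. Jun, the major AP-1 subunit, ran in WT from 2.66 through a median of 3.66 to 3.75 log2 RPKM, on 331 to 1031 reads. TG Me-X04- libraries held 3.40, 3.59, 3.90, 3.48 and 3.76, and TG Me-X04+ libraries 2.38, 5.43, 3.42 and 4.16. The TG Me-X04+ libraries thus held both the lowest and the highest value of all 16, in replicates 1 and 2, on 218 and 2058 reads. The log2FC of Jun was 0.21 (95% interval -0.58 to 1.01), 0.22 (-0.69 to 1.13) and 0.44 (-0.42 to 1.29) for TG Me-X04- against WT, for the TG groups against each other and for TG Me-X04+ against WT. Without TG Me-X04+ replicate 2 the latter values turned to -0.31 and -0.09.

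Jund, a subunit present in resting cells, ran in WT from 1.42 through a median of 2.09 to 2.52 log2 RPKM, on 189 to 279 reads. In TG Me-X04- it was 1.83, 2.40, 1.85, 1.04 and 1.57, and in TG Me-X04+ 1.84, 3.38, 2.41 and 2.39, where replicate 2 was again the highest library of the 16. Its log2FC was -0.25 (95% interval -0.88 to 0.39), 0.77 (0.04 to 1.50, limma adjusted p = 0.237) and 0.52 (-0.16 to 1.20) in the same order of comparisons.

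Junb, a subunit known to act in part against Jun, differed by set more than by group. In WT it ran from 0.18 through a median of 2.30 to 2.81 log2 RPKM, on 33 to 308 reads. TG Me-X04- libraries held -0.30, 0.64, 2.95, 2.86 and 2.13 and TG Me-X04+ libraries -0.87, -0.58, 1.82 and 2.06, on 12 to 389 reads in all TG libraries. In each group every set A library was below every set B library. The SD around the group means was 1.30, larger than for 83.6% of all genes, and fell to 0.49 with a term for the sets, set A being lower by 2.20 on the log2 scale. The log2FC of Junb was -0.11 (95% interval -1.55 to 1.34), -1.05 (-2.70 to 0.61) and -1.16 (-2.70 to 0.39) in the same order. With the set term, Junb was DE and lower in TG Me-X04+ against WT (log2FC -0.999, SE 0.31, limma adjusted p = 0.0256), where 21.8% of all genes were DE. It was not DE in TG Me-X04+ against TG Me-X04- (log2FC -0.83, SE 0.33, limma adjusted p = 0.116). The sets were drawn from the spread of these same values around the group means, so these p-values are not those of a grouping fixed in advance. The SD of the other members around their group means was 0.51 for Jund, 0.58 for Egr1, 0.70 for Jun and for Atf3, 0.81 for Egr2 and 1.32 for Nr4a1, beside a median of 0.72 for all genes.

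Nr4a1, an orphan nuclear receptor known to restrain inflammatory gene expression in myeloid cells, rested on few reads. WT libraries held 7, 11, 0, 1, 11, 16 and 8 reads, TG Me-X04- libraries 23, 34, 25, 38 and 27, and TG Me-X04+ libraries 0, 0, 22 and 32. In log2 RPKM this was -4.69 to -1.70 in WT (median -2.25), -1.30 to -0.46 in TG Me-X04- and -4.69, -4.69, -1.23 and -0.77 in TG Me-X04+. All TG Me-X04- libraries were above all WT libraries, and the TG Me-X04+ libraries split by set, with no read in either set A library. A library with no read allows up to 3 reads, which is 0.0917 RPKM in TG Me-X04+ replicate 1 and 0.0810 in replicate 2. The levels in the TG Me-X04- libraries of these animals (23 and 34 reads) were 6.14-fold and 8.53-fold above this limit. The limit covers only the counting error of the library without reads, so these folds are not lower bounds. These TG Me-X04+ libraries also had the most listed genes without reads of all 16 (1831 and 1781, against 450 and 524 in the other TG Me-X04+ libraries) and mitochondrial shares of 41.4 and 44.8%, and the part of this in their lack of Nr4a1 reads was not tested. Nr4a1 was not DE in TG Me-X04- against WT (log2FC 1.93, SE 0.75, limma adjusted p = 0.772), in TG Me-X04+ against TG Me-X04- (-2.01, SE 0.86, adjusted p = 0.205) or in TG Me-X04+ against WT (-0.08, SE 0.80, adjusted p = 0.964). Within set A the mean of TG Me-X04+ minus TG Me-X04- was -4.10, a value that depends on the prior added to the reads, and within set B it was -0.00327.

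Between the Me-X04+ and Me-X04- microglia of the same animal, Atf3, Egr2 and Jund were higher in Me-X04+ in 4 of 4 animals and Junb was lower in 4 of 4. The difference in log2 RPKM ran from 0.96 to 2.47 for Atf3 (mean 1.84, SD 0.72), from 1.38 to 3.34 for Egr2 (mean 2.16, SD 0.86), from 0.01 to 1.35 for Jund (mean 0.73, SD 0.57) and from -1.22 to -0.57 for Junb (mean -0.93, SD 0.30). Egr1 was higher in 3 of 4 animals, with differences of 1.47, 1.74 and 1.75 and of -0.16 in animal 4. For Jun the difference was 1.84 and 0.67 in animals 2 and 4 and -1.02 and -0.48 in animals 1 and 3. With the animal as a replicate block in the TG libraries, 6.01% of all genes were DE. Atf3 (limma adjusted p = 0.0167) and Egr2 (0.0188) were among them, and Egr1 (0.108), Jund (0.245) and Junb (0.183) were not.

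**Figure D3:**
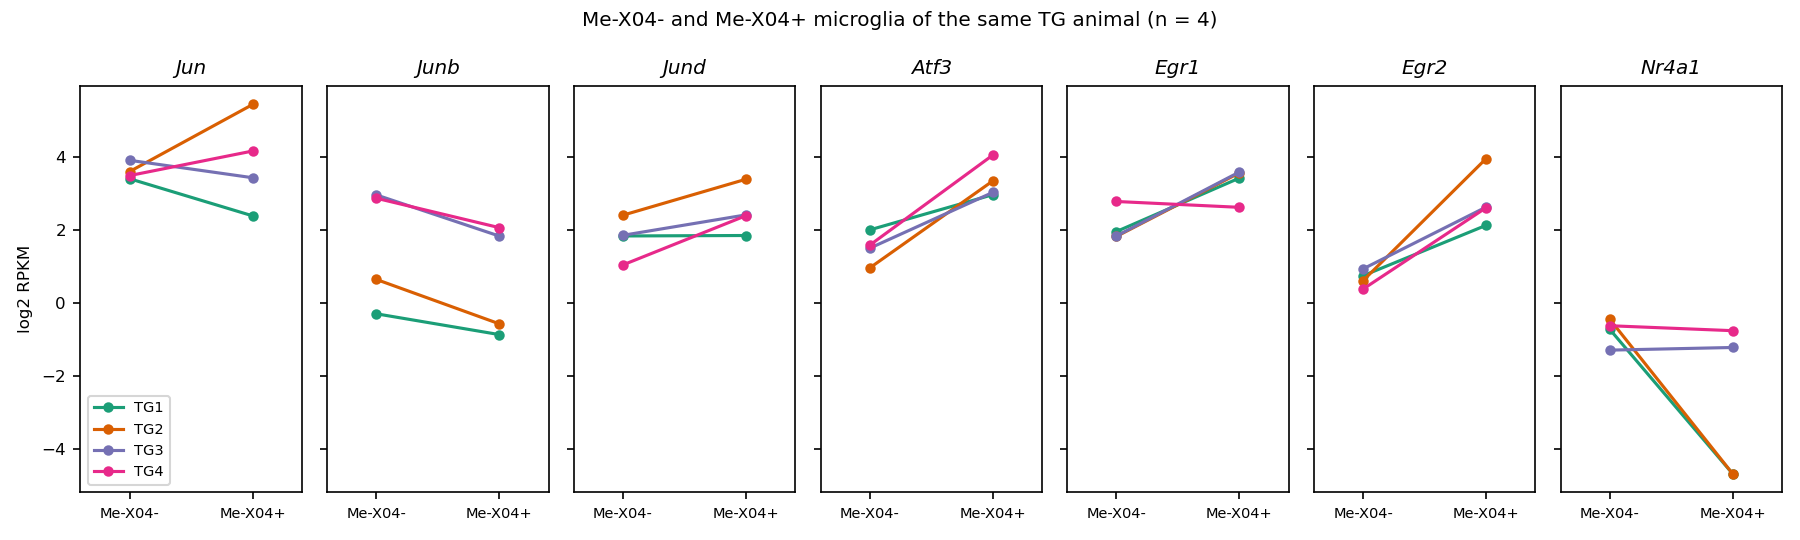
Level in log2 RPKM (vertical axis) in the Me-X04- and Me-X04+ microglia of the 4 TG animals that gave both, each line joining the libraries of an animal. The lines slope up for Atf3, Egr2 and Jund and down for Junb in all 4 animals, while Jun has slopes of both signs and Nr4a1 sits at the level of no read in the Me-X04+ libraries of animals 1 and 2.

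Split by set, the differences of Egr2, Egr1 and Atf3 kept their sign. In sets A and B, TG Me-X04- minus WT was 2.54 and 2.52 for Egr2, 1.48 and 1.65 for Egr1, and 1.58 and 0.75 for Atf3. The TG groups differed by 2.36 and 1.87 for Egr2, 1.60 and 1.06 for Egr1, and 1.67 and 2.01 for Atf3. The largest gap between the sets was that of Atf3 in TG Me-X04- minus WT, where WT replicate 3, its lowest library, lies in set A. Within set B alone, with 3 libraries of TG Me-X04- and 2 of TG Me-X04+, Atf3 (limma adjusted p = 0.00434) and Egr2 (0.00685) were DE between them, and within set A, with 2 of each, no member was. Of all genes, 12.6% were DE between the TG groups in set B and 0.474% in set A.

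Set against the Jun genes of the same library, Egr1 and Egr2 were lowest in WT and highest in TG Me-X04+. The mean log2 RPKM of Egr1 and Egr2 minus that of Jun, Junb and Jund was -3.60 to -1.87 in WT (n = 7, median -3.27), -1.52 to -0.30 in TG Me-X04- (n = 5, median -0.999) and -0.26 to 1.65 in TG Me-X04+ (n = 4, median 0.78). The 3 ranges did not overlap, and the mean of the Jun genes itself ran from 1.82 to 2.71 in WT, from 1.64 to 2.90 in TG Me-X04- and from 1.12 to 2.87 in TG Me-X04+. This difference was chosen with earlier results known and is given without a test.

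**Figure D4:**
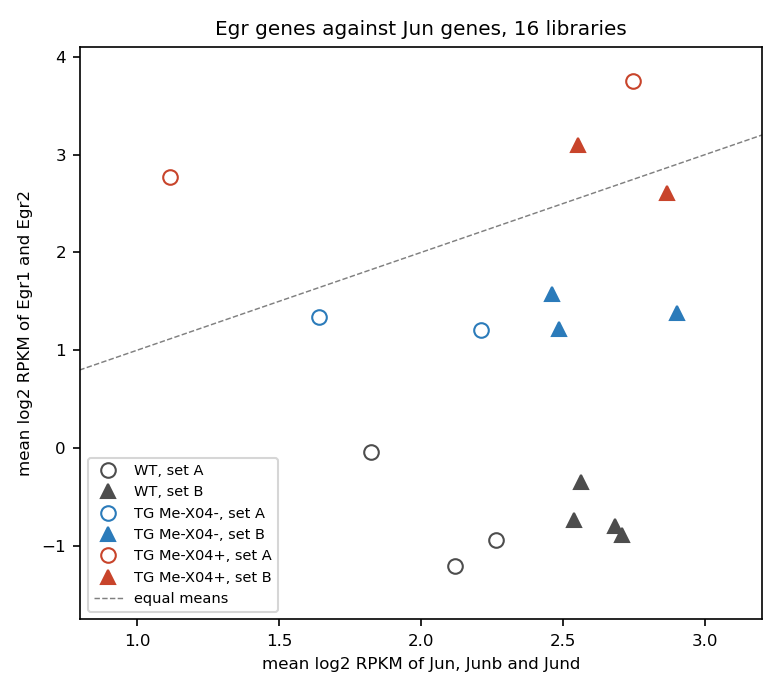
Mean log2 RPKM of Egr1 and Egr2 (vertical axis) against that of Jun, Junb and Jund (horizontal axis) in the 16 libraries, by group colour, with open circles for set A and triangles for set B. The dashed line marks equal means. WT libraries lie lowest, all TG Me-X04- libraries above them and the TG Me-X04+ libraries highest, at Jun means that overlap between the groups.

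The mitochondrial share was higher in TG Me-X04+ than in WT without overlap, as was Egr2, and its part in the result was not tested on its own. An alternative took library sizes from non-mitochondrial reads alone, which also drops the authors' scaling factors (TMM). Those factors had set library sizes from 0.543 (TG Me-X04+ replicate 2) to 1.43 (TG Me-X04- replicate 5) of the reads. The effects of the mitochondrial reads and of the dropped factors cannot be told apart here. The median of all genes in TG Me-X04+ against TG Me-X04- moved from -0.09 to -0.49. Under that scaling Egr2 was at 1.72 (limma adjusted p = 0.0776) and Atf3 at 1.44 (0.0907), neither DE, while Egr1 was at 0.92 (0.157). Of all genes, 6.67% were DE between the TG groups under it. This scaling moves all genes of a library alike, so distances from the median of all genes (2.20 for Egr2, 1.93 for Atf3 and 1.41 for Egr1) are by construction the same under both scalings. Against WT, the same 3 genes stayed DE in TG Me-X04+, with Egr2 at 4.34, Atf3 at 2.64 and Egr1 at 2.59 beside a median of -0.41.

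Other genes of the families and of the response to isolation were described from 6 lists. Of the 12 analysed of 14 other AP-1, Egr and Nr4a family genes, none was DE in TG Me-X04- against WT (2 at an unadjusted p under 0.05, none by voom) or between the TG groups (3 at an unadjusted p under 0.05, none by voom), with medians of 0.53 and -0.09 beside 0.01 and -0.09 for all genes. Against WT, 2 of the 12 rose in TG Me-X04+, Nr4a3, a sister receptor of Nr4a1 (log2FC 2.93, SE 0.78, limma adjusted p = 0.0165), and Maff, a small partner of AP-1 related factors (log2FC 2.08, SE 0.61, limma adjusted p = 0.0290). Nr4a3 had 0 to 13 reads in WT, 0 to 31 in TG Me-X04- and 15 to 89 in TG Me-X04+, so that its TG Me-X04+ libraries included none without reads, unlike those of Nr4a1. Nr4a2 had 0 to 21, 4 to 30 and 0 to 85 reads and was not DE.

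Of 33 other immediate early and ex vivo response genes, 27 were analysed. None was DE in TG Me-X04- against WT (3 at an unadjusted p under 0.05, none by voom), where their median was 0.06. Between the TG groups only Socs3, an inhibitor of cytokine signalling, was DE by limma and it fell (log2FC -2.29, SE 0.46, adjusted p = 0.00748), and the median was -0.14. By voom Nfkbiz was DE and higher there as well. Set against WT, 3 rose and 5 fell in TG Me-X04+, with a median of -0.31 beside -0.11 for all genes. The 4 with the largest change were Ier3 (3.08, SE 0.80, adjusted p = 0.0136), Nfkbiz, a regulator of NF-kB targets (1.82, SE 0.28, adjusted p = 0.00024), Klf10 (-1.77, SE 0.44, adjusted p = 0.0111) and Socs3 (-1.58, SE 0.43, adjusted p = 0.0191), all by limma. By voom 3 rose and 3 fell, and Socs3 was not among them. Zfp36, a common marker of ex vivo activation that destabilises cytokine mRNAs, had mean levels of 6.08, 5.97 and 6.38 log2 RPKM in the order of the groups and was not DE. Nor was Dusp1, a phosphatase of MAP kinases, at 1.14, 0.92 and 2.19.

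Of 8 heat shock genes 7 were analysed. Dnaja1 fell in TG Me-X04- against WT (log2FC -1.04, SE 0.18, limma adjusted p = 0.0163) and none was DE between the TG groups (2 at an unadjusted p under 0.05, none by voom). Against WT, Hspa1b (-4.17, SE 0.80, adjusted p = 0.00166), Hspa1a (-3.41, SE 0.98, adjusted p = 0.0258) and Dnaja1 (-1.31, SE 0.19, adjusted p = 0.000165) fell in TG Me-X04+, by limma. The other 4 were not DE there. Dnajb1 (log2FC -1.17, limma adjusted p = 0.0650) and Hsph1 (-0.98, adjusted p = 0.306) were lower in TG Me-X04+. Hspa8 stood at 5.99 in WT and 6.03 log2 RPKM in TG Me-X04+, and Hsp90aa1 at 3.97 in both. Hspa1a and Hspa1b are near-identical copies, and how reads were split between them is uncertain. The medians of the list were -1.04, -0.27 and -1.17 in the 3 comparisons.

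Of 7 cytokine genes of the ex vivo response, 6 were analysed, and the chemokine Ccl3 rose in TG Me-X04- against WT (log2FC 2.20, SE 0.29, limma adjusted p = 0.00157). Ccl3 (2.73, SE 0.33, adjusted p = 0.00023) and Ccl4 (2.21, SE 0.47, adjusted p = 0.0107) rose in TG Me-X04+ against TG Me-X04-, by limma. Against WT, TG Me-X04+ had log2FC values of 4.92 for Ccl3 and 3.75 for Ccl4 (adjusted p = 3.59e-08 and 2.17e-05), and Il1a fell by 0.71 (adjusted p = 0.0208), a call not made by voom. Tnf was not DE, at mean levels of -1.16, 0.74 and -1.26 log2 RPKM. The list's medians were 1.35, 0.32 and 1.32.

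Of the 15 upstream kinases and factors, none was DE in TG Me-X04- against WT (none at an unadjusted p under 0.05, none by voom) or between the TG groups (3 at an unadjusted p under 0.05, and Crem by voom). Against WT in TG Me-X04+, Elk1, an SRF partner (log2FC -1.22, SE 0.38, limma adjusted p = 0.0386), and Mapk8, the JNK1 kinase gene (-0.85, SE 0.25, adjusted p = 0.0310), fell, and voom called these and Crem, which was higher. Nab1 and Nab2 encode corepressors that bind Egr factors, and Nab2 is a known Egr target. Nab1 rose in TG Me-X04+ against WT (log2FC 1.30, SE 0.27, limma adjusted p = 0.00266), and by voom also between the TG groups, whereas Nab2 was not DE, at mean levels of 1.92, 2.40 and 3.01 log2 RPKM in the order of the groups.

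**Figure D5:**
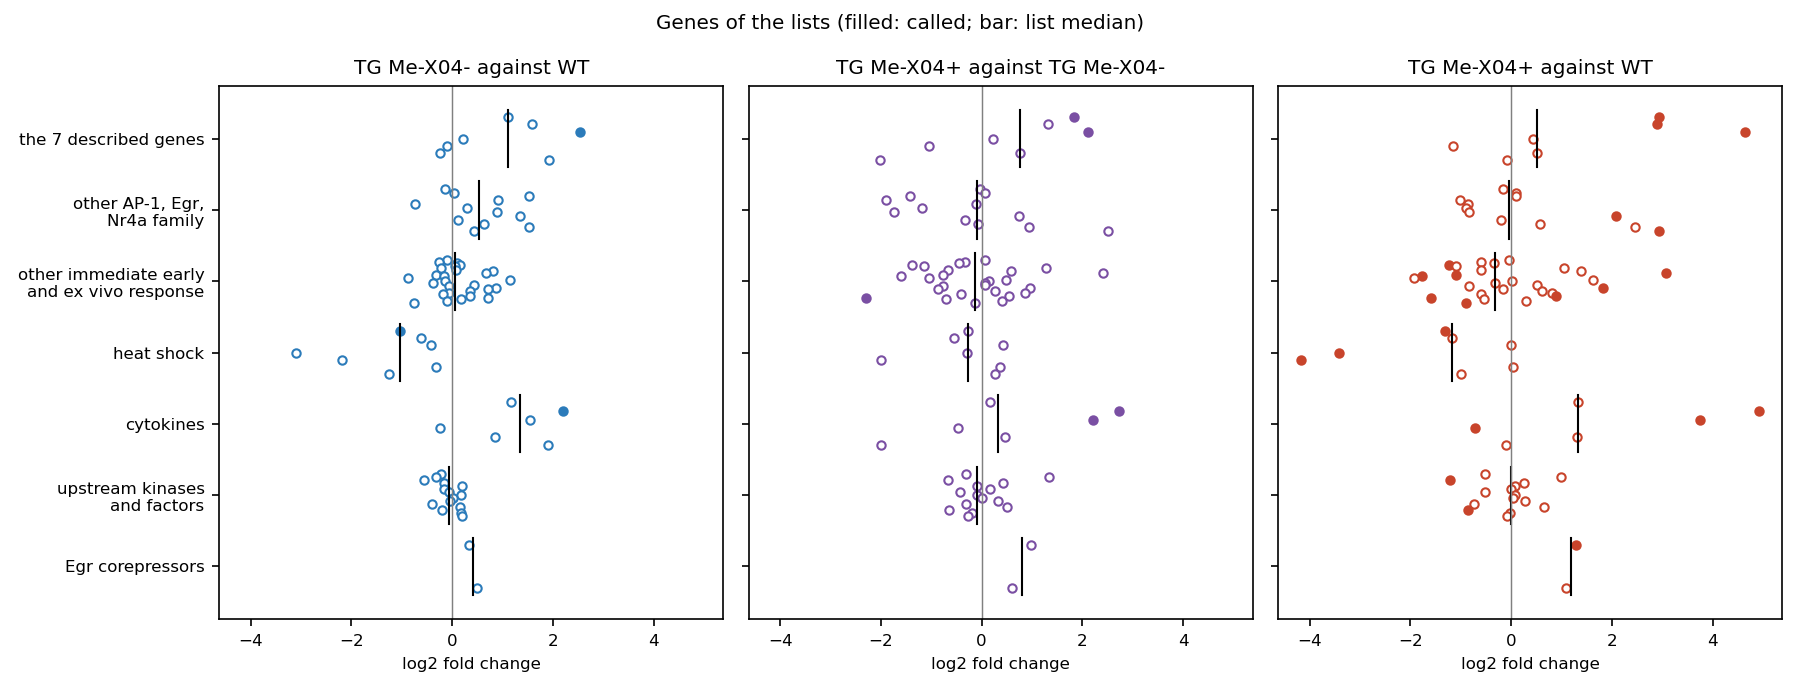
Log2 fold change (horizontal axis) of each analysed gene of the 7 described genes and of 6 lists (rows), in the 3 comparisons (panels). Filled points are DE and black bars are list medians. In TG Me-X04+ against WT the filled points lie on both sides of 0 for the other immediate early and ex vivo response genes, on the low side for heat shock genes, and on the high side for Atf3, Egr1 and Egr2.

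The genes whose profile over the 16 libraries was most like that of Egr1 were H2-D1, a class I histocompatibility gene, Rassf3 and the pseudogene Rps12-ps15, with root mean square differences of 0.51, 0.52 and 0.57 on the centred log2 RPKM scale. Among the members Atf3 came nearest to Egr1 (1.07, place 1072 among the 13323 genes compared), followed by Jun (1.26), Egr2 (1.30), Jund (1.30), Nr4a1 (2.02) and Junb (2.12). For Nr4a1 the nearest profiles were Pcp2 (0.85), Snrpd3 (0.87) and Gm42867 (0.88), and among the members Junb was nearest (1.48) and Egr2 farthest (2.30). These distances describe the libraries, in which group and set both move the values. They grow with differences in the size of a change as well as in its direction. Egr2 followed the same order of groups as Egr1 with larger changes (log2FC 4.64 against 2.90 in TG Me-X04+ against WT). Jun changed little there (0.44), so its smaller distance is not a closer likeness in direction.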

How the data were processed

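RNA-seq values of sorted microglia were taken as deposited. The authors trimmed reads with Trim Galore 0.4.4, aligned them to GRCm38 with STAR 2.5.4b, counted them on Gencode genes with featureCounts (strand setting not given in the sources used here), and used edgeR 3.24.3 to filter low genes and scale libraries by TMM. The authors deposited log2 RPKM values with a prior added to the reads, which shrinks fold changes where reads are few. The deposited table also holds the authors' own comparisons (log2 fold changes, p-values and score columns with moderated t and log odds), and gene lengths. The deposited p-values, scores and fold changes were not used.

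The equal steps of the values gave back the reads (100% whole within 0.01), which served for depths, floors of 3 reads and an alternative. Floors cover counting error only. Tests were fitted in R 4.3.3 with limma 3.58.1, two-sided, with trended eBayes and a coefficient for each of the 3 groups. The methods name a count test; limma was used here on the log2 values as deposited, and limma voom on the recovered reads as an alternative. The members, lists and markers were chosen with earlier results of these data known. Named genes were all members, up to 4 DE genes of each list by absolute log2 fold change, and the 3 nearest profiles to Egr1 and Nr4a1 among genes with a mean log2 RPKM of at least 0. The same rule for Fos was not applied. Tnf, Zfp36, Dusp1, Nr4a2, Nab2, Hspa8, Hsp90aa1, Hsph1 and Dnajb1 were named after their values were seen. On simulated data with 17951 genes, true log2 changes of 1, 2, 3 and 4 were given to 50 genes each in every comparison. Changes of 2 were called for 62% in TG Me-X04- against WT, for 52% between the TG groups and for 60% in TG Me-X04+ against WT. The fits to the libraries called 36, 986 and 2562 genes in the same order. The share called where such numbers of genes differ, or where libraries fall into sets, was not tested.

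Alternatives were other variance models, library weights, median centring, quantile normalization, scaling by non-mitochondrial reads, pseudocounts of 1 and 0.1, a filter on low values, fits of 2 groups, no fold threshold, the sets of libraries, replicate blocks, limma voom and each library left out. For the paired design, same-numbered TG libraries carry the same animal label, and the deviations of such pairs from their group means correlated across genes at 0.292 to 0.329 in 4 of 4 pairs, against 0.221 to 0.332 for different animals within a set and -0.348 to -0.176 for different animals across sets. The labels, not these correlations, therefore carry the pairing. Sequences and motifs are from RefSeq promoter windows, and figures were drawn with matplotlib 3.10.9.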

Additional observations from a re-analysis of the deposited data

Results flagged for a closer look

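In 2 of the 21 combinations of gene and group checked for a library far from the rest, WT replicate 3 stood apart below the other 6 WT libraries, at -1.62 log2 RPKM for Atf3 (9 reads) and at -3.89 for Egr2 (2 reads). About 1 in 20 such groups is picked out by chance. The same library had no read of Nr4a1 and 1381 listed genes without reads, the most of any WT library. Without it, the log2 fold change in TG Me-X04- against WT was 2.18 for Egr2 (limma adjusted p = 0.0187) and 0.77 for Atf3 (limma adjusted p = 0.706).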

How the results depend on the processing

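In TG Me-X04+ against WT the number of members called DE was 3 or 4 under every alternative run, with 9.2 to 21.8% of all genes called. In TG Me-X04- against WT, where it was 1, it was 2 with library weights or a term for the sets (0.975% and 0.563% of all genes called, against 0.201%). It was 0 with log2(RPKM + 1), only the 2 groups compared, only set A, limma voom or the replicate block by number (0.0724%, 0.184%, 0%, 0.139% and 0.1% of all genes called). It ran from 0 to 2 with single libraries left out. In TG Me-X04+ against TG Me-X04-, where it was 2, it was 3 with log2(RPKM + 1), a term for the sets or limma voom, with Egr1 added (5.46%, 11.9% and 5.71% of all genes called, against 5.49%). It was 0 with scaling by reads outside mitochondrial genes or only set A (6.67% and 0.474% of all genes called). It was 1 with the replicate block by number (Atf3, with 4.98% of all genes called), and 0 to 2 with single libraries left out. The replicate block by animal, in the TG libraries alone, kept 2 members called, and WT animals are not paired with TG animals. Signs turned only in values that were not called. For Nr4a1 in TG Me-X04+ against WT (-0.08) the log2 fold change was 0.74 with library weights, 0.44 with quantile normalization, 0.083 with log2(RPKM + 1), 0.12 with log2(RPKM + 0.1), 1.67 in set B, 0.23 with the replicate block by number, and -0.78 to 0.53 with single libraries left out. For Jun in TG Me-X04+ against TG Me-X04- (0.22) it was -0.17 with scaling by reads outside mitochondrial genes and -0.31 to 0.71 with single libraries left out, and against WT (0.44) -0.093 to 0.92 with single libraries left out. For Junb in TG Me-X04- against WT (-0.11) it was 0.15 in set B, 0.25 with the replicate block by number and -0.43 to 0.38 with single libraries left out. The cause of these moves was not tested. Of the 564 alternative values of single members, 21 changed sign, 30 lost a call and 9 gained one. Nr4a1, with at most 38 reads in a library, and Egr2 in WT, with at most 35, are limited by depth.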
